A study of Homo sapiens with 6 samples.

Results

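The JmjC, AlkB and related iron dioxygenases were examined as 42 genes, named one by one from what their proteins are known to be, and found in the count table by their gene symbols, old or new. Each matched 1 of the 60675 gene identifiers in the table, and 40 of the 42 were among the 16353 genes with enough reads to test. A2058 is an established human cell line from metastatic melanoma. RNA depleted of ribosomal RNA was sequenced from 3 control wells and from 3 wells given 100 µM vitamin C for 48 h, the dose in the sample labels, although the treatment text of the same labels gives 50 µM sodium ascorbate. The methods describe daily medium changes before each treatment in media whose formulas held no vitamin C. All 6 wells came from 1 cell line, so the p-values here measure only the spread between wells. Levels are given as the mean ± SD over the 3 wells of a group.

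Enzymes of this superfamily hold an iron atom in their active site and use oxygen and 2-oxoglutarate to oxidize a substrate, and ascorbate can keep the iron in the reduced form that works. The JmjC proteins include the histone lysine demethylases, which remove methyl groups that a flavin enzyme cannot, and hydroxylases of ribosomal and splicing proteins. AlkB proteins remove methyl groups from DNA and RNA, and other members hydroxylate protein side chains, branched fatty acids or the precursors of carnitine. The question the comparison addresses is whether the RNA of these enzymes differed between vitamin C and control wells. RNA levels do not measure the enzymes' activity.

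Library totals ran from 16248869 to 41884588 counts. All 8 melanocyte lineage markers were expressed well enough to test, and edgeR's quasi-likelihood test called *MLANA*, *PMEL* and *TYR* higher and *DCT* lower with vitamin C. On average *MLANA* rose from 1.54 to 15.4 CPM (counts divided by the library's total over the genes tested and scaled by TMM). *PMEL* rose from 89.2 to 148 CPM and *TYR* from 126 to 153 CPM. *DCT* fell from 1515 to 1234 CPM and made up most of the summed level of the 8 markers. That sum was 2533 to 2646 CPM in control wells and 2345 to 2470 CPM in vitamin C wells. Of the 8 blood cell markers, 6 had under 10 counts in every library. The summed level of the 8 fibroblast markers was 111.8 to 123.3 CPM in control wells and 182.8 to 214.5 CPM in vitamin C wells, most of it from *LUM* and *FAP*. These 2 and *COL3A1* (1.84 and 3.11 CPM on average) were called higher. *DCN* lay above all controls in every vitamin C well (1.89 and 3.04 CPM) without passing the test. *COL1A1* was at 0.309 to 0.626 CPM in the 6 wells, and *THY1* had 10 counts over the control and 3 over the vitamin C wells. The paper lists *FAP* among the genes raised by vitamin C in A2058 cells, by RNA-seq and qRT-PCR. The summed epithelial markers were at 72.6 to 76.9 CPM in control wells and 66.4 to 70.3 CPM in vitamin C wells. Mitochondrial genes held 0.612% to 0.744% of counts in control wells and 0.476% to 0.573% in vitamin C wells, lowest in VitC replicate 3. That well also stood apart in 7SK RNA, with 0.945% of counts against 0.577% to 0.748% in the other wells. The part of these differences in the results was not tested. In bulk RNA, fewer cells of a kind and less RNA per cell cannot be told apart.

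Of the 40 members tested, 5 passed an adjusted p of 0.05 in edgeR's quasi-likelihood test, or 12.5%, where 11.2% of all genes tested passed. *ASPH* and *ALKBH7* were higher with vitamin C, in a background where 6.09% of genes were higher. *KDM3A*, *KDM4B* and *BBOX1* were lower, in a background where 5.09% were lower. The share of members called was therefore near that of genes in general and of protein coding genes (13.45%). The values of control and vitamin C wells did not overlap for 11 members, or 27.5%, against 30.6% of all genes and 34.45% of protein coding genes. An unadjusted p under 0.05 in edgeR was found for 9 members, or 22.5%, against 25.7% of all genes and 29.27% of protein coding genes. The median log2 fold change of the members was 0.0025, with quartiles of -0.08 and 0.06, and that of all genes was -0.0037. The estimates were positive for 21 members and negative for 19.

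For 29 of 40 members, or 72.5%, the 95% interval of the fold change lay wholly within 1.25-fold in either direction. The share was 44.4% of all genes tested and 55.5% of protein coding genes. Such an interval needs a small change as well as a narrow spread. The median size of the log2 fold change was 0.07 among members, 0.13 among all genes and 0.11 among protein coding genes. The median control level was 25.9 CPM among members, 14.4 CPM among all genes and 27.1 CPM among protein coding genes. Summed over the 42 members, control wells held 3228, 3294 and 3279 CPM and vitamin C wells 3426, 3456 and 3423 CPM, and without *ASPH* the sums were 1778 to 1820 CPM and 1779 to 1791 CPM. The rise in the sum was therefore the rise of 1 gene. When Control replicate 2 was left out, 0 members passed edgeR's quasi-likelihood test, with 8 at an unadjusted p under 0.05, and 5.89% of all genes passed.

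**Figure D1:**
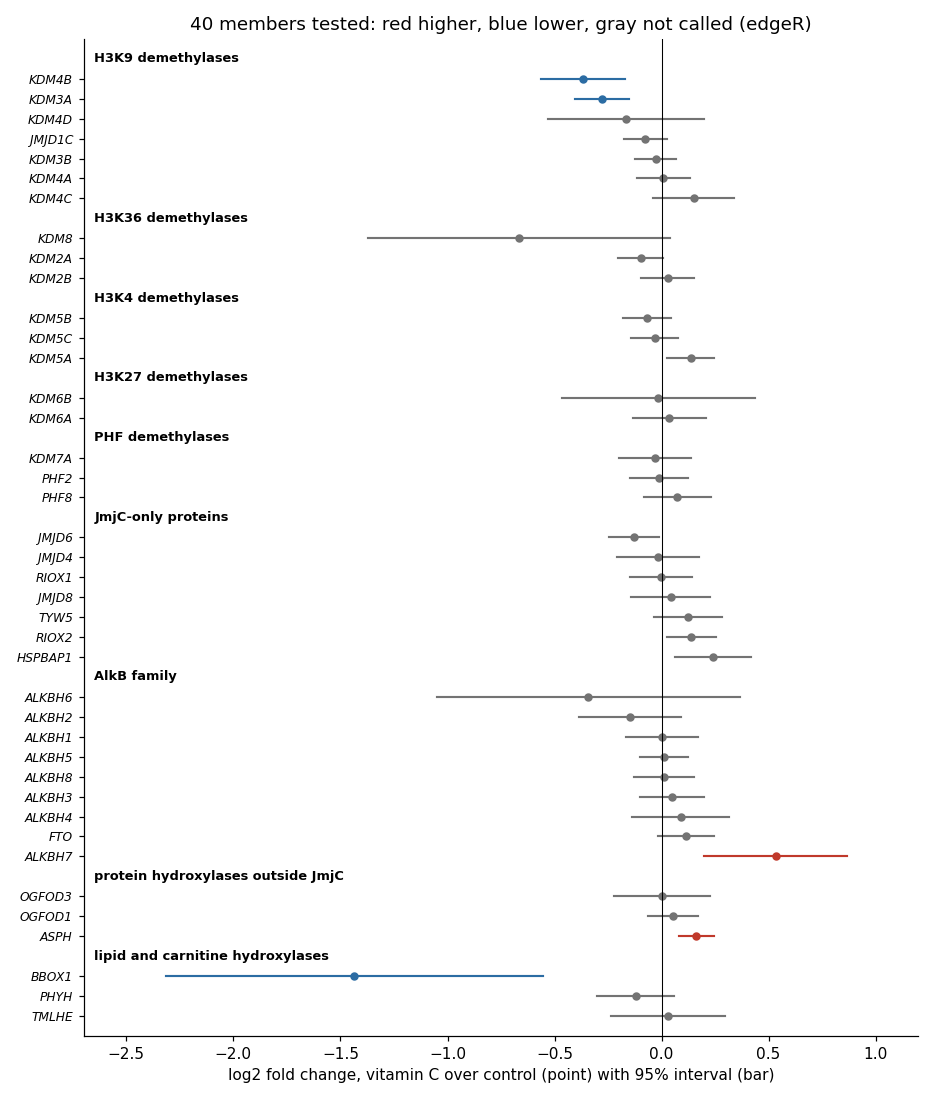
Each point is the log2 fold change of 1 of the 40 members tested, vitamin C over control, and each bar its 95% interval, grouped by enzyme role. The 3 blue members (*KDM4B*, *KDM3A*, *BBOX1*) lie left of 0 and the 2 red ones (*ALKBH7*, *ASPH*) right of it, while the 35 gray ones did not pass the test.

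Of the 7 genes listed as H3K9 demethylases, 2 were called lower by edgeR's quasi-likelihood test and 0 higher. Over all genes, 5.09% were lower and 6.09% higher. The PHD finger demethylases and *HR* were kept in other lists, whatever lysine they act on, and none of them was called by that test. *KDM3A*, which removes mono- and dimethyl marks from lysine 9 of histone H3 and is a known hypoxia-induced gene, lies at chr2:86440647-86492716 (GRCh38, plus strand). *KDM4B*, which removes the trimethyl mark from the same lysine and is also known to rise in hypoxia, lies at chr19:4969113-5153595 (GRCh38, plus strand). Their promoter sequences and that of *BBOX1* are shown because the 3 genes fell while the windows differ in G+C content and in the letters ACGTG and GCGTG, which hold the core that hypoxia-inducible factors bind. Capitals mark these letters on either strand, and the palindrome CACGTG holds ACGTG on both strands. The sequences are from RefSeq (GRCh38.p14), on the genes' strand, and counted back from RefSeq's first base, which for *KDM3A* is the more upstream of 2 starts and lies downstream of the GENCODE start.
KDM3A, chr2:86441332-86441361, bases -39 to -10: tccgggaggctgtGCGTGtcttgtgagagc
KDM4B, chr19:4968863-4969112, bases -250 to -1: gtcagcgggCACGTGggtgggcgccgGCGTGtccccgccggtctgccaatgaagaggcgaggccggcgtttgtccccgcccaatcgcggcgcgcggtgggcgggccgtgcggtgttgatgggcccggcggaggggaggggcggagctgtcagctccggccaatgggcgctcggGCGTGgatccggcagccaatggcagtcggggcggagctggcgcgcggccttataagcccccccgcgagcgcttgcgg
BBOX1, chr11:27040565-27040724, bases -250 to -91: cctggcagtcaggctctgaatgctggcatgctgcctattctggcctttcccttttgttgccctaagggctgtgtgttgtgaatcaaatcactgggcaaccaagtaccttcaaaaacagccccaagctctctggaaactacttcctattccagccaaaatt

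Over the 250 bases before the start, the *KDM4B* window was 75.6% G+C with 36 CpG dinucleotides and 4 matches to the letters, of which a pair overlap in the palindrome. RefSeq gave *KDM3A* 2 starts whose windows both hold the printed stretch, and these were 62.4% and 68.4% G+C with 16 and 24 CpG and the same 1 match. The *BBOX1* windows, also 2, were 49.2% (the one printed) and 43.6% G+C with 0 CpG and 0 matches. Windows were found for 38 of the 42 members, 53 windows in all, and those of *JMJD6*, *RIOX1*, *RIOX2* and *ASPH* were not. ACGTG or GCGTG stood in 32 of the 53 member windows, or 60.4%, and in 43.2% of the 35116 windows of all genes. Member windows also held more CpG, with a median of 18 against 11 and a median G+C content of 64% against 58%. The letters stood in windows of 25 members, most of which were not called, and a match is no evidence of binding.

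*KDM3A* stood at 76.2, 80.3 and 69.9 CPM in control wells and at 62.7, 63.7 and 60.6 CPM in vitamin C wells. Every vitamin C well was below every control well, and the vitamin C wells lay close together. The mean fell from 75.5 ± 5.28 to 62.4 ± 1.58 CPM (SD, n = 3 each), a log2 fold change of -0.28 (SE 0.06, 95% interval -0.41 to -0.15) with an adjusted p of 0.00857 in edgeR's quasi-likelihood test. The call was kept under 5 of the 6 omissions of 1 well and lost without Control replicate 2, the highest control, with an adjusted p of 0.0619. No exon base of *KDM3A* overlaps another gene.

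*KDM4B* stood at 17.1, 20.0 and 17.7 CPM in control wells and at 13.8, 15.5 and 13.1 CPM in vitamin C wells. Again no vitamin C well reached the lowest control. The mean fell from 18.3 ± 1.53 to 14.1 ± 1.23 CPM (SD, n = 3 each), a log2 fold change of -0.37 (SE 0.09, 95% interval -0.56 to -0.17) with an adjusted p of 0.0196 in edgeR's quasi-likelihood test. The call was lost without Control replicate 2 (adjusted p 0.102), Control replicate 3 (0.0513) or VitC replicate 1 (0.0528).

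The close relatives of these genes were not called by edgeR's quasi-likelihood test, and whether they differed from *KDM3A* and *KDM4B* in their change was not tested. *KDM3B*, which acts on the same marks as *KDM3A*, was at 130 ± 2.87 CPM in control wells and 128 ± 2.02 CPM with vitamin C (log2 fold change -0.03, 95% interval -0.13 to 0.07). *JMJD1C*, the third protein of that branch and the H3K9 member with the highest level per exon length, was at 192 ± 3.96 and 182 ± 7.39 CPM, a log2 fold change of -0.08 (-0.18 to 0.02). *KDM4A*, a trimethyl demethylase like *KDM4B*, was at 53.3 ± 2.58 and 53.6 ± 1.18 CPM, a log2 fold change of 0.01, though 40.2% of its exon bases also belong to a gene on the same strand. Their relatives *KDM4C* and *KDM4D* also act on trimethylated lysine 9. *KDM4C* was estimated 0.15 higher and *KDM4D* 0.17 lower on the log2 scale, and neither passed the test.

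**Figure D2:**
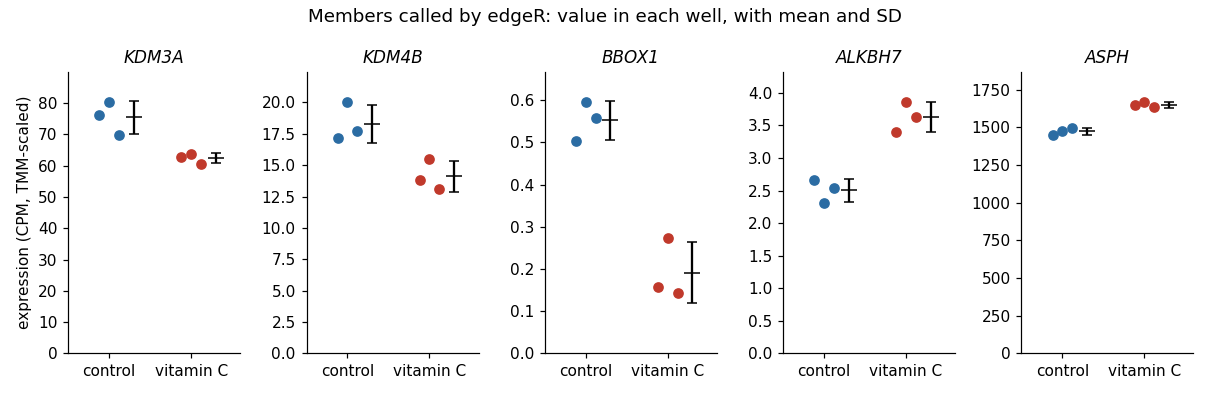
Each dot is the level of 1 well in CPM for the 5 members that passed the test, with the mean and SD (n = 3 wells) beside it, and each vertical axis starts at 0. The control and vitamin C wells do not overlap in any of the 5 panels, and the scales run from under 1 CPM for *BBOX1* to over 1000 CPM for *ASPH*.

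None of the 11 histone demethylases outside the list of 7 H3K9 demethylases was called by edgeR's quasi-likelihood test or by DESeq2. An unadjusted p under 0.05 in edgeR was found for 1 of them, *KDM5A*, where 25.7% of all genes had one. *KDM5A*, which removes methyl groups from lysine 4 of histone H3, was at 172, 181 and 178 CPM in control wells and at 187, 189 and 207 CPM with vitamin C. Every vitamin C well lay above the controls, with VitC replicate 3 the highest. The log2 fold change was 0.14 (SE 0.05) and the adjusted p 0.103. Its relatives *KDM5B* and *KDM5C* were estimated at -0.07 and -0.03 on the log2 scale.

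Among the H3K36 demethylases, *KDM2A*, which also binds unmethylated CpG DNA, was at 87.5 ± 2.75 and 81.8 ± 1.10 CPM, a log2 fold change of -0.10 (-0.20 to 0.01). *KDM2B*, a partner of a Polycomb complex, was at 40.1 ± 0.939 and 40.9 ± 0.971 CPM. *KDM8*, the lowest of the tested members per exon length, was at 0.810 ± 0.107 and 0.511 ± 0.141 CPM, and its interval of -1.37 to 0.04 was wide. The adjusted p in edgeR's quasi-likelihood test was 0.233 for *KDM2A* and 0.223 for *KDM8*.

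The H3K27 demethylase *KDM6A*, an X-linked gene whose protein sits in enhancer methyltransferase complexes, was at 26.9 ± 1.6 CPM in control and 27.6 ± 2.56 CPM in vitamin C wells. *KDM6B*, known as an inducible enzyme of the same mark, was low at 2.49 ± 0.0925 and 2.41 ± 0.671 CPM, and the vitamin C wells ranged from 1.67 CPM in replicate 3 to 2.98 CPM in replicate 2. The PHD finger demethylases *KDM7A*, *PHF8* and *PHF2* had log2 fold changes of -0.03, 0.07 and -0.01, and for all 3 the 95% interval lay within 1.25-fold. Over the 18 histone demethylases, 2 were called lower and 0 higher, or 11.1%, against 11.2% of all genes tested. Their median log2 fold change was -0.03.

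The methyltransferases that write the same marks were counted beside the erasers. Of 8 H3K4 methyltransferases, 4 were lower by edgeR's quasi-likelihood test and 0 higher, where 5.09% of all genes were lower and 6.09% higher. The median log2 fold change of the 8 was -0.22. *SETD7*, which writes the monomethyl mark, fell from 199 ± 5.68 to 174 ± 4.63 CPM, *KMT2A*, the founding member of the MLL family, fell from 166 ± 7.54 to 137 ± 14.3 CPM and *KMT2D*, the main enhancer methyltransferase with its paralog, fell from 51.3 ± 3.41 to 42.4 ± 3.87 CPM. The 4 calls fell to 0 without Control replicate 2 and to 1 without Control replicate 1, Control replicate 3 or VitC replicate 2. None of the 3 H3K4 demethylases was called beside them.

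Of 6 H3K9 methyltransferases, 1 was higher and 0 lower in edgeR, where 6.09% of all genes were higher and 5.09% lower. *SETDB2*, a member of the SETDB family, stood at 63.5, 64.5 and 63.5 CPM in control wells and at 90.3, 87.4 and 90.2 CPM with vitamin C (log2 fold change 0.48, SE 0.05), with an adjusted p of 3.16e-05 in edgeR's quasi-likelihood test. Its estimate had the opposite sign to those of *KDM3A* and *KDM4B*, and a link between them was not tested. The other 5 genes of its list were not called, and methylation of lysine 9 was not measured. Of the 4 genes of the H3K27 and the 6 of the H3K36 lists, 0 were called by edgeR, DESeq2 or limma-voom. An unadjusted p under 0.05 in edgeR was found for 1 and 3 of them, against 25.7% of all genes. Among 5 genes of the flavin demethylase list, 1 was higher and 0 lower, against 6.09% and 5.09% of all genes. *KDM1B*, an H3K4 demethylase of the other chemical family, was at 46.1 ± 1.79 and 53.5 ± 3.61 CPM (log2 fold change 0.22, adjusted p 0.0436 in edgeR's quasi-likelihood test). The call was kept without VitC replicate 3 and lost under each of the other omissions of 1 well (adjusted p 0.0755 to 0.158).

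**Figure D3:**
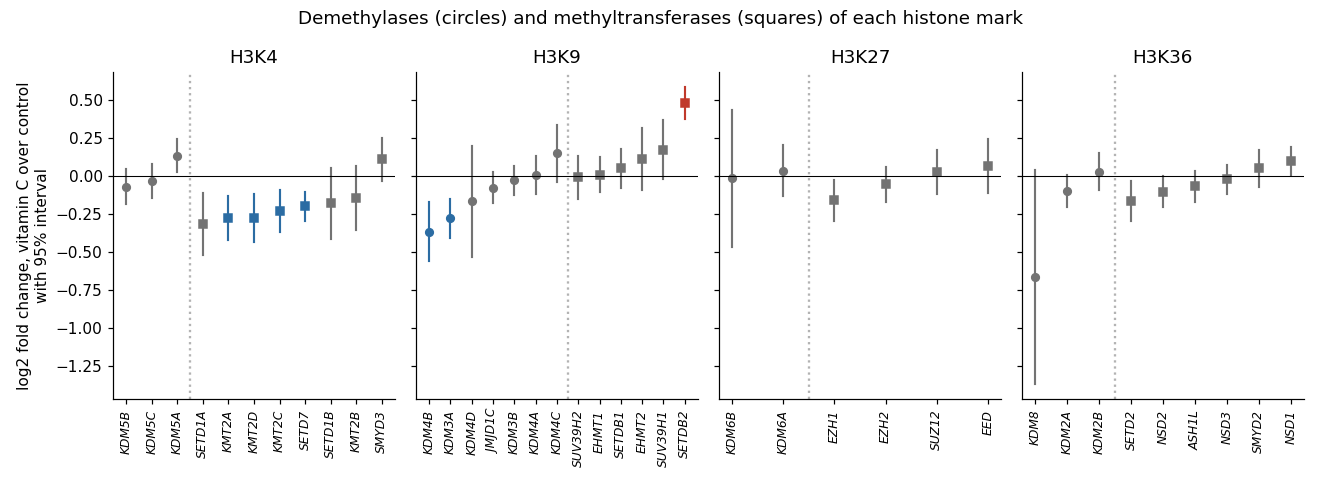
Log2 fold changes, vitamin C over control, with 95% intervals are shown for demethylases (circles) and methyltransferases (squares) listed for lysines 4, 9, 27 and 36 of histone H3. The PHD finger demethylases and *HR* are not shown. Blue genes were lower, red higher and gray not called, with *KDM4B* and *KDM3A* the 2 blue circles and 4 blue squares in the H3K4 panel.

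None of the 7 JmjC proteins outside the demethylase families was called by edgeR or DESeq2 with all wells. An unadjusted p under 0.05 in edgeR was found for 3, where 25.7% of all genes had one. *HSPBAP1*, named for binding a small heat shock protein, came nearest to the threshold of all members outside it, at 11.8, 11.3 and 11.1 CPM in control wells and 12.8, 13.7 and 14 CPM with vitamin C (log2 fold change 0.24, adjusted p 0.0807). *RIOX2*, a histidine hydroxylase of ribosomal protein RPL27A, stood at 70.5, 70.9 and 70.7 CPM in control wells and at 80.9, 78.9 and 73.5 CPM with vitamin C. The vitamin C wells of both genes lay above all controls. For *RIOX2* the log2 fold change was 0.14 and the adjusted p 0.115, and without VitC replicate 3 it was 0.18 and 0.0216. Opposite-strand exons of another gene cover 27.6% of *RIOX2*'s exon bases.

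*JMJD6*, a lysine hydroxylase of splicing factors, was at 55.5 ± 2.04 CPM in control wells and 50.7 ± 0.844 CPM with vitamin C, with every vitamin C well below the controls and an adjusted p of 0.151 in edgeR's quasi-likelihood test. *RIOX1*, which hydroxylates ribosomal protein RPL8 and had the highest level per exon length of this group in control wells (10.8 CPM per kb against 10.3 for *RIOX2*, and 10.8 against 11.3 with vitamin C), was at 26.3 ± 1.05 and 26.1 ± 1.2 CPM. *TYW5*, which hydroxylates the wybutosine base of a transfer RNA, was at 22.6 ± 1.41 and 24.6 ± 1.38 CPM (log2 fold change 0.12, -0.04 to 0.28). *JMJD4*, a hydroxylase of the translation release factor, and *JMJD8*, a protein of the endoplasmic reticulum, had log2 fold changes of -0.02 and 0.04. Exons on the opposite strand cover 53.8% and 37.4% of their exon bases.

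Of the 9 AlkB proteins, *ALKBH7*, a mitochondrial protein known for a part in programmed necrosis, was the one called by edgeR with all wells. That is 11.1% of the family, near the 11.2% called over all genes tested. *ALKBH7* lies at chr19:6372433-6375251 (GRCh38, plus strand). It stood at 2.67, 2.31 and 2.54 CPM in control wells and at 3.40, 3.86 and 3.63 CPM in vitamin C wells, on counts of 41 to 111 and 76 to 127 reads. All vitamin C wells lay above all controls. The mean rose from 2.50 ± 0.181 to 3.63 ± 0.228 CPM (SD, n = 3 each), a log2 fold change of 0.53 (SE 0.16, 95% interval 0.20 to 0.87) with an adjusted p of 0.0420 in edgeR's quasi-likelihood test. This call was lost whichever 1 of the 6 wells was left out (adjusted p 0.0512 to 0.143), and also in DESeq2 (0.0987). An opposite-strand gene covers 7.15% of its exon bases.

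The RNA demethylases of the family were well measured. *ALKBH5*, which erases N6-methyladenosine from messenger RNA and had the highest level per exon length of the AlkB proteins, was at 136 ± 6.57 CPM in control wells and 137 ± 6.01 CPM with vitamin C (log2 fold change 0.01, 95% interval -0.10 to 0.12). *FTO*, which acts on the same modification, stood at 79.6, 81 and 83 CPM in control wells and at 91.8, 91.9 and 79.3 CPM with vitamin C. VitC replicate 3 lay below every control and the other vitamin C wells above them. The log2 fold change of *FTO* was 0.11 with an adjusted p of 0.265, and without VitC replicate 3 it was 0.18 with 0.0166 in edgeR's quasi-likelihood test. Of 9 m6A writers, 0 were called by edgeR, DESeq2 or limma-voom. An unadjusted p under 0.05 in edgeR was found for 3, against 25.7% of all genes. Of 7 readers tested, 1 was lower and 0 higher, against 5.09% and 6.09% of all genes. It was *IGF2BP2*, which stabilizes its target messages (log2 fold change -0.20, adjusted p 0.0258 in edgeR's quasi-likelihood test). The call was lost without Control replicate 2 or 3 or VitC replicate 1 or 2 (adjusted p 0.0615 to 0.125).

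The DNA repair enzymes *ALKBH2* and *ALKBH3*, which reverse alkylation damage, were at 24.9 ± 3.91 and 25.6 ± 1.70 CPM in control wells and at 22.2 ± 2.63 and 26.4 ± 0.411 CPM with vitamin C. *ALKBH2* varied more between control wells, from 20.9 to 28.7 CPM, than it differed between groups. *ALKBH1*, which acts on transfer RNA and mitochondrial RNA, and *ALKBH8*, which methylates and hydroxylates the wobble base, had log2 fold changes of 0.00 and 0.01. *ALKBH4*, a demethylase of actin, was at 8.10 ± 0.936 and 8.73 ± 0.180 CPM. *ALKBH6* was low at 0.993 ± 0.376 and 0.762 ± 0.131 CPM, with an interval of -1.05 to 0.37, and a gene on its own strand covers 25.1% of its exon bases.

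*ASPH*, which hydroxylates aspartate and asparagine in EGF-like domains in the endoplasmic reticulum, had the highest level of all members in CPM and per exon length. It lies at chr8:61500556-61714640 (GRCh38, minus strand). It stood at 1450, 1474 and 1499 CPM in control wells and at 1647, 1668 and 1632 CPM with vitamin C. The wells of each group were close together and the groups did not overlap. The mean rose by 11.8% to 1649 ± 18.0 CPM from 1474 ± 24.8 CPM (SD, n = 3 each), a log2 fold change of 0.16 (SE 0.04, 95% interval 0.08 to 0.24) with an adjusted p of 0.0154 in edgeR's quasi-likelihood test. Without Control replicate 1, 2 or 3 the adjusted p was 0.0762, 0.0724 and 0.054, and it stayed under 0.05 without any 1 vitamin C well. An opposite-strand gene covers 5.44% of its exon bases.

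The other protein hydroxylases did not pass. *OGFOD1*, which hydroxylates a proline of ribosomal protein RPS23, was at 84.9 ± 2.33 and 88.3 ± 5.15 CPM, a log2 fold change of 0.05 (-0.06 to 0.17). *OGFOD3* was at 10.2 ± 0.907 and 10.4 ± 1.09 CPM. *OGFOD2* had 9, 3 and 1 counts in control wells and 4, 11 and 6 with vitamin C, and a neighbouring gene on its own strand covers 67.3% of its exon bases. *P4HTM*, a prolyl hydroxylase of the endoplasmic reticulum membrane, had 7, 11 and 4 counts and 6, 3 and 1. Both were below the filter on low counts and were not tested.

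*BBOX1*, the last enzyme of carnitine synthesis, lies at chr11:27040725-27127809 (GRCh38, plus strand) and was called lower on few reads. Its counts were 21, 16 and 9 in control wells and 4, 9 and 3 in vitamin C wells, or 0.504, 0.596 and 0.557 CPM against 0.157, 0.274 and 0.143 CPM. Every vitamin C well was below every control. The log2 fold change was -1.43 (SE 0.41, 95% interval -2.32 to -0.55) with an adjusted p of 0.0386 in edgeR's quasi-likelihood test. The call was lost whichever 1 of the 6 wells was left out (adjusted p 0.0618 to 0.133), and DESeq2 gave no adjusted p for it.

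*TMLHE*, the first enzyme of carnitine synthesis, was at 7.01 ± 0.585 CPM in control wells and 7.15 ± 1.01 CPM with vitamin C. *PHYH*, the peroxisomal hydroxylase that starts the breakdown of phytanic acid and the lipid and carnitine member with the highest level per exon length, was at 21 ± 0.787 and 19.3 ± 1.89 CPM, a log2 fold change of -0.12 (-0.30 to 0.06).

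Divided by exon length, control levels of the tested members ran from 0.201 CPM per kb for *KDM8* to 73.5 CPM per kb for *ASPH*, with a median of 5.27 against 3.48 CPM per kb over all genes tested. *ALKBH5* came second at 42.8 CPM per kb. *JMJD1C* (17.4 CPM per kb) and *KDM3B* (16.4 CPM per kb) followed, and then *KDM5A* and *OGFOD1*, both at 14.6 CPM per kb. The last pair overlapped in the control wells, from 14.2 to 15.0 for *KDM5A* and from 14.3 to 15.1 CPM per kb for *OGFOD1*. *KDM3A* (5.62 CPM per kb) lay near the middle, and *ALKBH7* (1.72), *KDM4B* (1.24) and *BBOX1* (0.224 CPM per kb) lay lower. At the bottom, *ALKBH6*, *BBOX1* and *KDM8* overlapped in the control wells. The lengths are of all annotated exons joined together, so genes with many isoforms such as *ASPH* come out lower than the transcript in use would give.

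**Figure D4:**
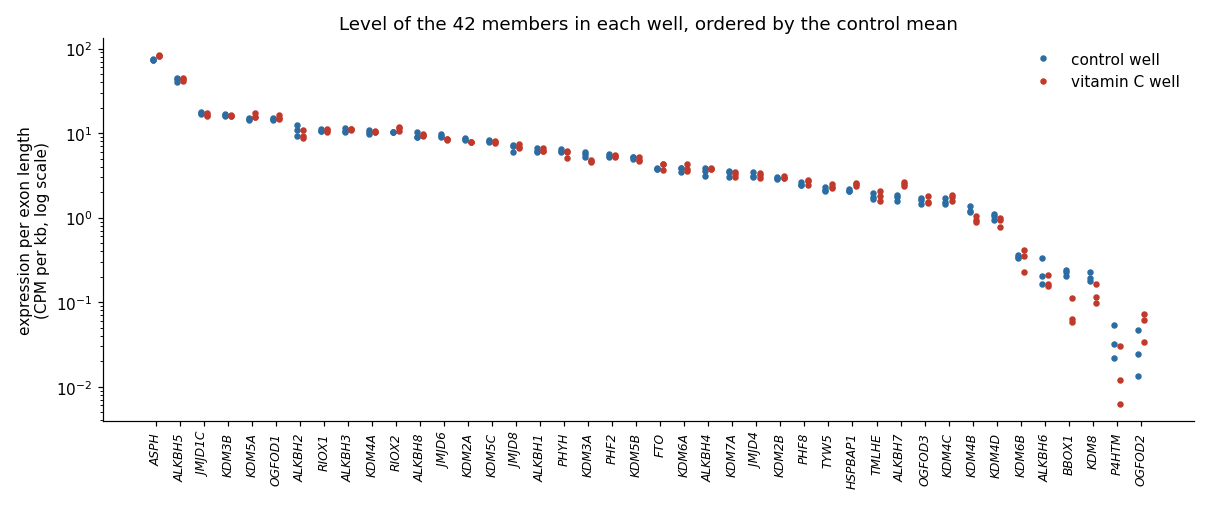
The vertical axis is the level per exon length of each of the 42 members in CPM per kb on a log scale, 1 dot per well, ordered by the control mean. *ASPH* and *ALKBH5* stand above the rest at 73.5 and 42.8 CPM per kb in control wells, and the members from *KDM6B* (0.344) on lie lowest.

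Other dioxygenases of the same chemistry were counted for comparison. Of 17 tested, among them TET, prolyl and lysyl hydroxylase genes, 2 were lower and 1 higher by edgeR's quasi-likelihood test. These calls made up 17.65% of the 17, where 11.2% of all genes tested were called. The 17 estimates had a median of -0.10 on the log2 scale. *P4HA1*, a collagen prolyl hydroxylase, fell from 323 ± 7.10 to 259 ± 5.53 CPM and *TET1*, which oxidizes 5-methylcytosine, fell from 58.2 ± 4.01 to 43.7 ± 4.34 CPM. *PLOD2*, a collagen lysyl hydroxylase, rose from 425 ± 5.10 to 483 ± 22.2 CPM. The call on *PLOD2* was lost without any 1 control well or VitC replicate 2. Without VitC replicate 3 the list held 4 lower genes.

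Since *KDM3A* and *KDM4B* are known hypoxia-induced genes, a list of some other such genes was read beside them. The list does not hold all genes of this kind. Of 15 tested, 3 were lower and 1 higher in edgeR, or 26.7%, where 5.09% of all genes were lower and 6.09% higher. The other 11 did not pass, among them *CA9* with a log2 fold change of 0.73 and *EGLN3* with -0.42. Over the list 10 estimates were negative and 5 positive, with a median log2 fold change of -0.18. *PDK1*, a kinase that inhibits pyruvate dehydrogenase, fell from 81 ± 5.32 to 53.6 ± 7.53 CPM (adjusted p 0.000627 in edgeR's quasi-likelihood test). *DDIT4*, an inhibitor of mTORC1 signaling, fell from 235 ± 10.1 to 190 ± 5.63 CPM (0.000863 in the same test). *SLC2A1*, the main glucose transporter, fell from 67.8 ± 1.59 to 55.5 ± 5.57 CPM (0.0163 in the same test). *ANGPTL4*, a secreted inhibitor of lipoprotein lipase, rose from 0.919 ± 0.314 to 2.04 ± 0.553 CPM (0.0190 in edgeR's quasi-likelihood test). The call on *ANGPTL4* was lost without Control replicate 1, Control replicate 3 or VitC replicate 2, and that on *SLC2A1* without Control replicate 1, Control replicate 3 or VitC replicate 1. Omitting 1 well left 2 to 4 genes of the list lower. The list was chosen with earlier results of these data known. The activity of hypoxia-inducible factors was not measured, and the cause of these differences was not tested.

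**Figure D5:**
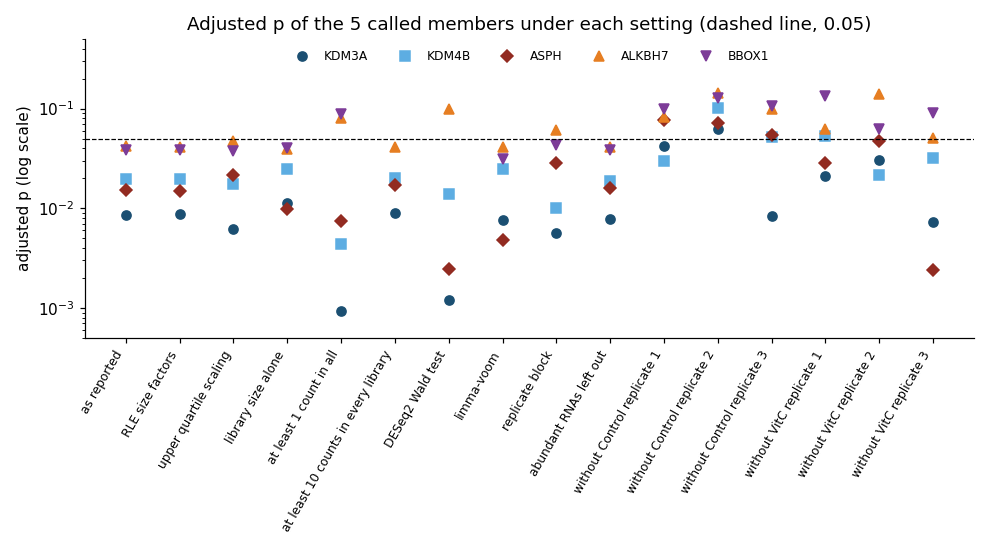
Each marker is the adjusted p, on a log scale, of 1 of the 5 called members under 1 way of processing the counts, with the dashed line at 0.05. *KDM3A* lies under the line in all columns but the one without Control replicate 2, while *ALKBH7* and *BBOX1* lie above it in each of the 6 columns that leave out 1 well.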

How the data were processed

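Counts of reads per gene, without normalization, were deposited for 6 wells of A2058 cells. The authors sequenced paired-end reads of ribosome-depleted RNA, and the paper names STAR, HTSeq and the GENCODE v19 annotation, while hg38, CASAVA 1.4, Trim Galore and STAR stand in the processing notes of the submitters. No source used here says whether counting used the strand, so genes overlapping on opposite strands cannot be told apart. GENCODE 29 (GRCh38) gave symbols, exon lengths and coordinates for 57055 of the 60675 identifiers. RefSeq (GRCh38.p14) gave the promoter sequences.

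In R 4.3.3, edgeR 4.0.16 filtered genes by expression, applied TMM scaling and compared the groups by its quasi-likelihood test over 16353 genes. Calls were made where the p adjusted by the Benjamini-Hochberg method was under 0.05. Intervals cover the spread between wells and counting error. CPM was computed from the deposited counts, and CPM per kb by dividing by joined exon length. Alternatives were other scalings and filters, DESeq2 1.42.0, limma-voom (limma 3.58.1), a replicate block, other thresholds, removal of abundant RNAs and omission of each well, and the fits were tested on simulated data.

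The members and the gene lists were chosen with earlier results of these data known. Every member is accounted for. Full statistics are given for called members. The member of each role with the highest level per exon length is given with at least its level or its fold change. Where none was called, so is that with the smallest p. From the other lists the called genes are named, at most the 3 with the smallest p in each direction. Counts of called genes in any list are to be read beside 6.09% higher and 5.09% lower over all genes tested. Counts at an unadjusted p under 0.05 in edgeR are to be read beside 25.7%. The result of 1 list and of a gene in it is not reported here.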

Additional observations from a re-analysis of the deposited data

How the results depend on the processing

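Of the 30 fits of the 5 called members that left out 1 well, 11 kept the call and 19 lost it, and no direction turned. Under other settings 39 of 43 values kept the call. *ALKBH7* lost it when genes with at least 1 count over all 6 libraries were kept, in DESeq2 and with the replicate block (adjusted p 0.0804, 0.0987 and 0.0607), and *BBOX1* when such low genes were kept (0.089). *BBOX1* was not tested when at least 10 counts were required in every library. Members called higher numbered 1 in place of 2 with the lower filter, in DESeq2 and with the replicate block, 0 at an adjusted p of 0.01, and 0 to 3 without 1 well. Members called lower numbered 1 in place of 3 at 0.01, and 0 to 2 without 1 well. Without VitC replicate 3, *RIOX2* and *FTO* were called as well.

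Genes called higher numbered 473 at an adjusted p of 0.01 and 549 to 1184 without 1 well, against 996, and genes called lower 322 at 0.01, 1331 at 0.1 and 411 to 911 without 1 well, against 833. The members' median log2 fold change was -0.0079 under upper quartile scaling, 0.0145 by library size, 0.0089 with the lower filter, 0.0068 in DESeq2, and -0.0117 to 0.0208 without 1 well. The cause of these changes was not tested, beyond the fewer wells in the omissions.

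Signs turned only among members that were not called. Under upper quartile scaling the log2 fold change was -0.0028 for *KDM4A*, -0.0084 for *ALKBH1*, -0.00075 for *ALKBH5*, -0.0011 for *ALKBH8* and -0.0074 for *OGFOD3*. *RIOX1* came to 0.0088 by library size, 0.0047 with the lower filter and 0.0041 in limma-voom, and *OGFOD3* to -0.0204 in limma-voom and -0.00024 with the replicate block. Omitting 1 well gave ranges that crossed 0 for *KDM4A* (-0.028 to 0.047), *KDM6A* (-0.041 to 0.095), *KDM6B* (-0.205 to 0.177), *KDM7A* (-0.105 to 0.028), *PHF2* (-0.033 to 0.020), *JMJD4* (-0.072 to 0.048), *JMJD8* (-0.024 to 0.099), *RIOX1* (-0.035 to 0.034), *ALKBH1* (-0.044 to 0.057), *ALKBH5* (-0.025 to 0.046), *ALKBH6* (-0.604 to 0.021), *ALKBH8* (-0.018 to 0.070), *OGFOD3* (-0.079 to 0.060) and *TMLHE* (-0.073 to 0.120).

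The deviations of wells with the same replicate number correlated at 0.123, -0.0237 and 0.0915, and those of wells with different numbers at -0.179 to 0.108. Such deviations are taken from means of only 3 wells, so these values cannot decide whether the numbers pair the wells. With the replicate block, 4 members were called, 1 higher and 3 lower, and 11.7% of all genes. Depth limits *KDM8*, *ALKBH6*, *KDM6B*, *BBOX1*, *OGFOD2* and *P4HTM* most, and a p that misses the threshold there does not show that levels were alike.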

Other observations

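Genes that work with the members on the same substrates were read from lists of their own. *HACL1*, the lyase that follows *PHYH* in the breakdown of phytanic acid, rose from 61.4 ± 4.38 to 71.9 ± 3.84 CPM (SD, n = 3 each), a log2 fold change of 0.22 with an adjusted p of 0.0400 in edgeR's quasi-likelihood test. The call was kept without VitC replicate 1 and lost without each other well and under upper quartile scaling (adjusted p 0.0505 to 0.162).

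Among the ribosomal, release factor and splicing factor substrates of *RIOX1*, *RIOX2*, *OGFOD1*, *JMJD4* and *JMJD6*, 1 of 5 was lower and 0 higher. Over all genes tested, 5.09% were lower and 6.09% higher. *RPL27A*, the substrate of *RIOX2*, stood at 293, 294 and 288 CPM in control wells and at 260, 253 and 253 CPM with vitamin C (log2 fold change -0.19, SE 0.04), with an adjusted p of 0.00917 in edgeR's quasi-likelihood test. The groups did not overlap, and the call was lost without Control replicate 2 (adjusted p 0.0535).

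Of 4 alkylation repair genes tested, 1 was higher and 0 lower, against 6.09% and 5.09% of all genes. *ASCC3*, the helicase that works with *ALKBH3*, rose from 222 ± 10.6 to 251 ± 3.58 CPM (log2 fold change 0.17, adjusted p 0.0302 in edgeR's quasi-likelihood test). The call was kept without VitC replicate 3 and lost without any other 1 well (adjusted p 0.0518 to 0.151). *MGMT*, which repairs alkylated guanine directly, had 2, 0 and 2 counts in control wells and 0, 0 and 1 with vitamin C, under the filter. Of 13 genes of the transfer RNA wobble and wybutosine pathways, in which *ALKBH8* and *TYW5* act, 0 were called by edgeR, DESeq2 or limma-voom. An unadjusted p under 0.05 in edgeR was found for 4, against 25.7% of all genes.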
